A study of Mus musculus with 6 samples.

Results

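Inflammatory signalling through NF-κB switches on genes whose products bring it to a halt again. The 10 genes described here are such brakes or related regulators, and several of them, not necessarily all, are transcribed through NF-κB. A20 (Tnfaip3), a ubiquitin-editing enzyme, is joined by its partners ABIN1 and ABIN2 (Tnip1, Tnip2) and the deubiquitinases CYLD and OTULIN (Cyld, Otulin). Further members are the mRNA decay factors Regnase-1, Regnase-3, Roquin-1 and tristetraprolin (Zc3h12a, Zc3h12c, Rc3h1, Zfp36), and the receptor adaptor Traf1. Their rows were found by gene name alone, with no measured value in the rule. The members themselves were chosen with earlier results of these data known. All 10 are among the 43043 genes listed in each table. Every member also passed the filter on low counts that left 14419 genes to be tested.

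RNA was sequenced from D4M-3A cells, a mouse melanoma line, in 3 Ctrl and 3 Nfkbiz KO samples. By lentivirus, Ctrl cells had received a CRISPR-Cas9 construct without a target and Nfkbiz KO cells a construct directed at Nfkbiz. All cells were selected with puromycin and grown in the same serum-containing medium, and no cytokine treatment is stated for the sequenced samples. The methods describe no isolation of clones, so a knockout sample may be a mixture of edited cells. The study calls the samples independent experiments without naming separate transductions, so the p-values measure the spread between these samples.

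Samples held between 32219900 and 44927203 gene reads. No sample was a copy of another of its group: chi-square values of pairs, divided by their degrees of freedom, were 3.41 to 5.89 among Nfkbiz KO and 25.8 to 65.9 among Ctrl samples, where counting noise alone gives about 1. The control pairs with replicate 1 had 42.0 and 65.9. Control replicate 1 also had 335 TPM of the rRNA entry 5_8S_rRNA_2, against 0.535 to 6.14 TPM in the other samples. Its Rpph1 level was 198 TPM, against 2.82 to 19.7 TPM elsewhere. Of the melanocyte lineage markers Mitf, Sox10, Pmel, Tyr, Tyrp1, Dct and Mlana, Sox10 and Tyr had 0 reads in every sample, and the 7 genes together summed to only 1.11 to 1.74 TPM in Ctrl samples and 1.27 to 1.68 TPM in Nfkbiz KO. Leukocyte markers summed to 1.78 to 2.67 TPM in Ctrl samples and 1.77 to 4.01 TPM in Nfkbiz KO, nearly all of it Cd68. Ptprc stayed at or below 0.0304 TPM throughout. Keratinocyte markers did not exceed 0.121 TPM in any sample, and the endothelial pair Pecam1 and Cdh5 summed to 0.530 to 0.796 TPM in Ctrl samples and 1.31 to 1.83 TPM in Nfkbiz KO. The part of these markers in the changes below was not tested.

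The targeted gene followed the labels. Nfkbiz encodes the atypical IκB protein IκBζ, which the study describes as a co-regulator that activates some NF-κB target genes and represses others. In the Ctrl samples Nfkbiz stood at 69.1, 75.2 and 63.5 TPM (a relative transcript level corrected for length and depth). In the Nfkbiz KO samples it stood at 34.8, 34.7 and 35.2 TPM. Its mRNA fell by 0.98 on the log2 scale (SE 0.06, adjusted p = 5.98e-08, edgeR quasi-likelihood test). Transcript remained in every knockout sample. The study checked the depletion of the IκBζ protein in D4M-3A cells by immunoblot and calls it efficient.

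A20 and its partners act on ubiquitin chains. Upon receptor engagement, K63-linked and linear chains are built on adaptors such as RIPK1 and NEMO, and kinases assemble on them. A20 and the ABIN proteins bind and remodel these platforms, CYLD trims K63-linked and linear chains, and OTULIN cuts only linear ones. The decay factors act later, on the mRNAs that the pathway produces. Regnase-1 is an endoribonuclease that cuts stem-loops in the 3′ UTRs of cytokine mRNAs and of Nfkbiz itself, Roquin-1 binds similar stem-loops, and tristetraprolin binds AU-rich elements and recruits the CCR4-NOT deadenylase. Several of these genes are transcribed through NF-κB, which closes the loop.

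RefSeq promoter windows of the build GRCm38.p6, from 250 bases before to 50 bases after the annotated start site, were found for all 10 members. They were searched on both strands for the 10-letter NF-κB (κB) consensus. It was present in windows of 4 of the 10 members, beside 9.55% of all 27025 genes with a window. The stretches around the matches are shown 5′ to 3′ on the gene's own strand, with the matching letters in capitals, because they are the only matches among the members.

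Tnfaip3, 125 to 116 bases before the start (minus strand, chr10:19015501-19015560): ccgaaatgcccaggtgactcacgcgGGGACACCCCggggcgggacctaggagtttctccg
Tnfaip3, 12 to 3 bases before the start (minus strand, chr10:19015388-19015447): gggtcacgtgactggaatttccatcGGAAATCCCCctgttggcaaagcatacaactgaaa
Tnip1, 58 to 47 bases before the start (minus strand, chr11:54962962-54963023): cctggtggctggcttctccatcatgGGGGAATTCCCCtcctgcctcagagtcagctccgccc
Cyld, 155 to 146 bases before the start (plus strand, chr8:88696848-88696907): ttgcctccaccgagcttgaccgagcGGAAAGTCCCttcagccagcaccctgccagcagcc
Zc3h12c, 236 to 227 bases before the start (minus strand, chr9:52168608-52168656): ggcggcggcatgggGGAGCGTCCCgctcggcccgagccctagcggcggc

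Tnfaip3 had matches at 2 places in the same window, the one farther from the start reading as the consensus on both strands. Tnip1 had a 12-base palindrome that holds overlapping matches on both strands. The second Tnfaip3 match and those of Cyld and Zc3h12c read as the consensus on the strand opposite to the gene. The windows of Tnip2, Otulin, Zc3h12a, Rc3h1, Zfp36 and Traf1 held no match, which says only that these letters are not within those 300 bases.

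**Figure D1:**
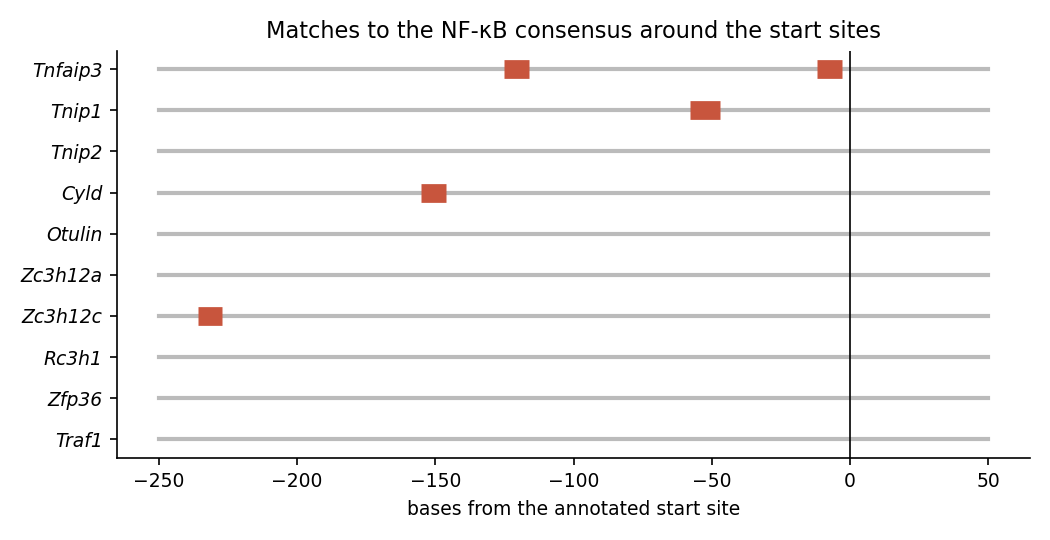
Positions of matches to the NF-κB consensus (filled blocks) in the promoter window of each feedback gene (grey line), in bases from the annotated start site (vertical line). Tnfaip3 has 2 matching stretches and Tnip1, Cyld and Zc3h12c have 1 each, overlapping matches and those on both strands drawn as 1 block, while the other 6 windows are empty; a further start site listed for Tnfaip3 and for Zc3h12c also had no match and is not drawn.

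Feedback mRNAs are themselves subject to decay. The AU-rich nonamer TTATTTATT, the preferred binding site of tristetraprolin, occurred on the sense strand in the 3′ UTR of 3 of the 9 members whose 3′ UTR is reported, beside 8.40% of 20721 genes with a 3′ UTR (canonical transcripts of GENCODE on GRCm39). These UTRs differ much in length, from 600 bases in Tnip2 to 7181 in Rc3h1, against a median of 1084 over all genes. The 3 sites are shown with the nonamer in capitals and 10 flanking bases on each side, 5′ to 3′ on the transcript.

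Zfp36 (minus strand, chr7:28076376-28076404): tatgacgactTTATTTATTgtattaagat
Rc3h1 (plus strand, chr1:160797613-160797641): actttactcaTTATTTATTgagatgagga
Otulin (minus strand, chr15:27603935-27603963): atcagtttccTTATTTATTtatctatctt

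Zfp36, which encodes tristetraprolin, thus carried the nonamer that its own protein binds. The shorter core ATTTA, found in the 3′ UTR of 67.5% of all genes, was densest in Zfp36 with 3.88 per kilobase and in Zc3h12a with 3.50 per kilobase, against a median of 1.28 over all genes. Among the 9 members, Tnip1 was the only one whose 3′ UTR had 0 copies. Rc3h1 had the most copies, 20, and also the longest UTR.

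Levels differed widely between the members, and at least 97.7% of each member's reads mapped uniquely. In Ctrl cells Zc3h12a led with 71.8 TPM ± 3.77 (SD, n = 3), followed by Tnip1 with 56.5 TPM ± 0.59 and Otulin with 50.6 TPM ± 0.58. Zfp36 stood at 23.7 TPM ± 0.18. Tnfaip3 (15.2 TPM ± 1.90), Rc3h1 (15.1 TPM ± 1.47) and Cyld (14.2 TPM ± 1.47) came next and overlapped with their neighbours in the order. Tnip2 (9.99 TPM ± 0.23) and Zc3h12c (8.62 TPM ± 1.62) also overlapped, and Traf1 closed the order at 1.29 TPM ± 0.05. In Nfkbiz KO cells the order was almost the same, except that Tnip1 (71.3 TPM ± 1.59) stood above Zc3h12a (55.9 TPM ± 2.25) and Zc3h12c (11.5 TPM ± 0.52) above Tnip2 (9.31 TPM ± 0.89). In both exchanges the 3 knockout values of the upper gene lay above the 3 of the lower gene.

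**Figure D2:**
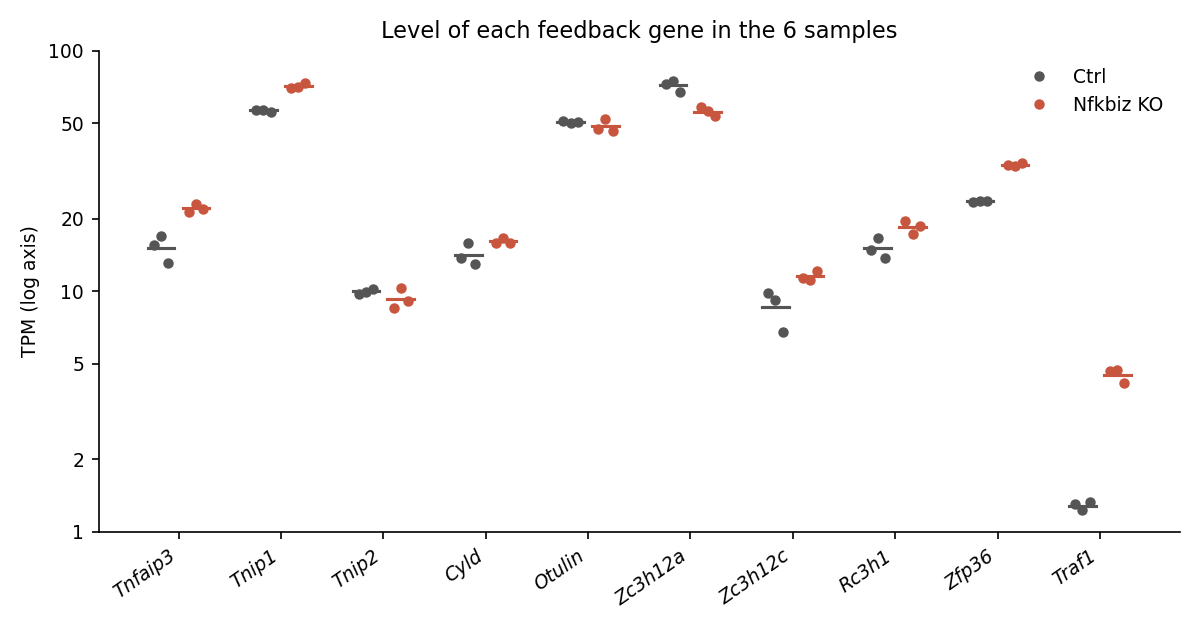
Level of each feedback gene in TPM (log axis) in the 3 Ctrl samples (grey) and the 3 Nfkbiz KO samples (red), with a bar at the mean of each group. Traf1 lies lowest, between 1.23 and 4.69 TPM, and Zc3h12a and Tnip1 exchange the top place between the groups.

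Of the 10 members, 6 rose in Nfkbiz KO cells at an adjusted p of 0.05 or less, 1 fell and 3 did not pass. Over all tested genes, 18.2% passed as higher and 18.4% as lower. The members' median log2 fold change was 0.21, beside a median of -0.015 over all tested genes. Fold changes here come from gene reads, so they differ from ratios of the TPM values shown. For every member the log2 ratio of mean TPM was the higher of the 2 values. It was -0.36 against -0.48 for Zc3h12a and 0.54 against 0.46 for Tnfaip3. Values of 7 members did not overlap between the groups on the log2 CPM scale, as was the case for 48.4% of all tested genes. CPM are gene reads scaled to the library's total after its adjustment by a normalization factor (TMM). In bulk RNA a change in every cell and a change in the number of expressing cells cannot be told apart.

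Tnfaip3 (chr10:18874201-18891405 on GRCm39, minus strand) had 15.5, 16.9 and 13.1 TPM in Ctrl samples and 21.4, 23.0 and 22.0 TPM in Nfkbiz KO. All 3 knockout samples were above all 3 control samples. The gene rose by 0.46 on the log2 scale, that is 1.37-fold (SE 0.07, adjusted p = 0.00025, edgeR). It encodes A20, the best-known brake of the pathway. Leaving out any single sample gave log2 fold changes of 0.39 to 0.52, all past the threshold.

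Its binding partner Tnip1 (chr11:54796320-54854661, minus strand), encoding ABIN1, had 56.7, 56.9 and 55.8 TPM in Ctrl samples and 70.3, 70.6 and 73.2 TPM in Nfkbiz KO. Control values lay within about 1 TPM of each other and the groups were clearly separate. The gene rose by 0.23 on the log2 scale (SE 0.05, adjusted p = 0.0055, edgeR). ABIN1 links A20 to ubiquitin chains through its own ubiquitin-binding domain. The exons of Tnip1 share 2603 bases with Gpx3 on the opposite strand, which had only 28 to 46 reads per sample.

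Tnip2 (chr5:34651772-34671388, minus strand), whose product ABIN2 also holds the kinase TPL2, gave another picture. It had 9.77, 9.97 and 10.2 TPM in Ctrl samples and 8.54, 10.3 and 9.11 TPM in Nfkbiz KO. The groups overlapped, with knockout replicate 2 at the control level. The log2 fold change was -0.14 with a 95% interval of -0.37 to 0.09 (adjusted p = 0.34, edgeR). The interval holds falls as well as slight rises.

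Neither of the other deubiquitinases passed the test. Cyld (chr8:89423468-89478574, plus strand) had 13.8, 15.8 and 12.97 TPM in Ctrl samples and 15.9, 16.7 and 15.9 TPM in Nfkbiz KO. On the log2 CPM scale control replicate 2 lay within the knockout range. The log2 fold change was 0.095 with a 95% interval of -0.04 to 0.23 (adjusted p = 0.26, edgeR). Without control replicate 2 it passed, with 0.16 on the log2 scale (adjusted p = 0.038, edgeR), while over the 14 alternatives the adjusted p ranged from 0.038 to 0.50.

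Otulin (chr15:27542721-27631297, minus strand), the enzyme for linear chains, had 51.0, 49.9 and 50.8 TPM in Ctrl samples and 47.2, 52.3 and 46.2 TPM in Nfkbiz KO. In TPM the knockout samples spread around the tight control values. In CPM the Ctrl samples had 30.8, 28.6 and 31.0 and the Nfkbiz KO samples 27.8, 28.8 and 26.1. There only knockout replicate 2 lay within the control range. The log2 fold change was -0.14 with a 95% interval of -0.28 to 0.0039 (adjusted p = 0.12, edgeR).

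The decay factors moved in both directions. Zc3h12a (chr4:125012216-125021711, minus strand), the Regnase-1 gene, was the only member that fell. It had 72.6, 75.1 and 67.7 TPM in Ctrl samples and 58.1, 56.0 and 53.6 TPM in Nfkbiz KO, with no overlap between the groups. The level fell by 0.48 on the log2 scale, to 0.718 of control (SE 0.05, adjusted p = 2.24e-05, edgeR). Across all 14 alternatives the log2 fold change stayed between -0.50 and -0.36 and passed the threshold. Regnase-1 degrades Nfkbiz mRNA, and in these cells both transcripts were lower. Nfkbiz is itself the edited gene, and a relation between these transcripts was not tested.

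Zc3h12c (chr9:52020873-52080106, minus strand), a relative of Zc3h12a that encodes Regnase-3, moved the other way. It had 9.86, 9.21 and 6.79 TPM in Ctrl samples and 11.4, 11.1 and 12.1 TPM in Nfkbiz KO. Control replicate 3 was the lowest by far, and the groups did not overlap. The log2 fold change was 0.32 (SE 0.10, adjusted p = 0.021, edgeR). Without control replicate 3 it was 0.21 with an adjusted p of 0.039, and it missed the threshold without knockout replicate 1 (adjusted p = 0.051) or knockout replicate 3 (adjusted p = 0.097, the largest among its alternatives, whose smallest was 0.00045).

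Rc3h1 (chr1:160733982-160802548, plus strand) encodes Roquin-1, which shares targets with Regnase-1. It had 14.9, 16.6 and 13.7 TPM in Ctrl samples and 19.7, 17.4 and 18.6 TPM in Nfkbiz KO. Control replicate 2 came within 1 TPM of knockout replicate 2, and the groups did not overlap. The log2 fold change was 0.20 (SE 0.06, adjusted p = 0.027, edgeR). This call was lost without control replicate 1 (adjusted p = 0.071), knockout replicate 1 (0.13) or knockout replicate 3 (0.10), and over all alternatives the adjusted p ran from 0.0080 to 0.13.

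Zfp36 (chr7:28076209-28079710, minus strand), the tristetraprolin gene, showed little spread in TPM within either group. It had 23.5, 23.8 and 23.7 TPM in Ctrl samples and 33.5, 33.2 and 34.1 TPM in Nfkbiz KO. Each knockout sample was more than 9 TPM above each control sample. The gene rose by 0.41 on the log2 scale, 1.33-fold (SE 0.06, adjusted p = 0.00022, edgeR), and it passed under all 14 alternatives.

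Traf1 (chr2:34831762-34851837, minus strand) changed most. TRAF1 is an adaptor of TNF family receptors that lacks the RING domain of its relatives, and its gene is a known NF-κB target. It had 124, 124 and 163 reads in Ctrl and 384, 493 and 522 reads in Nfkbiz KO. In TPM these were 1.30, 1.23 and 1.33 against 4.66, 4.69 and 4.15. Every knockout sample was more than 3 times any control sample in TPM. The log2 fold change was 1.74, or 3.34-fold (SE 0.11, adjusted p = 1.16e-07, edgeR).

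**Figure D3:**
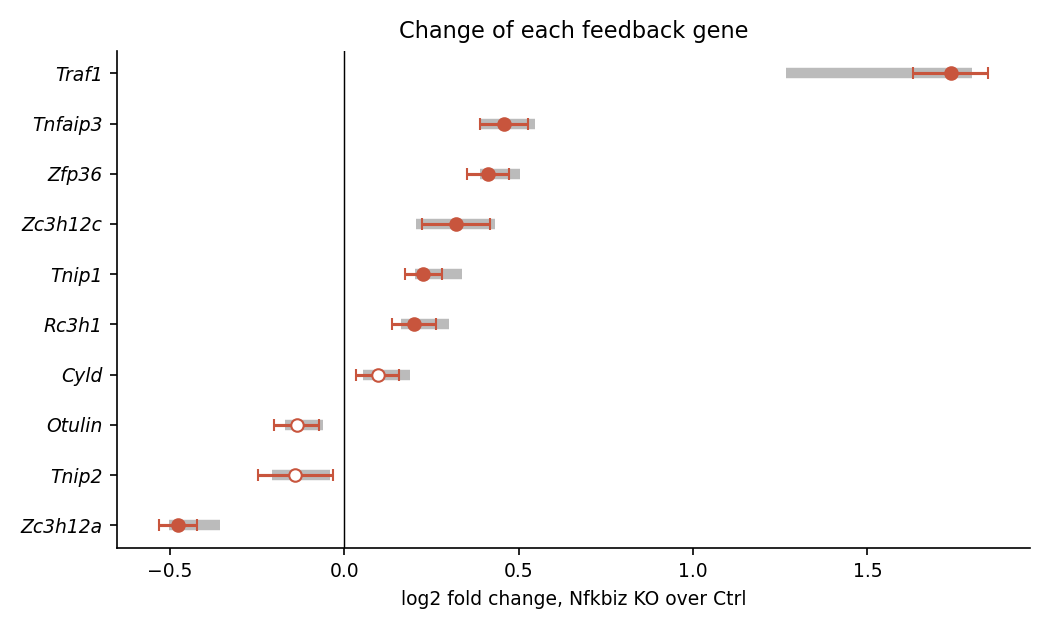
Log2 fold change of each feedback gene in Nfkbiz KO over Ctrl (points) with its standard error, filled where the adjusted p is 0.05 or less; the grey band spans the values under 14 alternative settings. Zc3h12a at -0.48 is the only filled point left of 0, and Traf1 at 1.74 stands apart on the right.

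The definition of a regulated gene in the study's methods is stricter. It asks for a fold change above 2 and for group means that lie more than 4 apart, here taken in TPM, besides an adjusted p of at most 0.05. The study's results text and heatmap legend name only a fold change of at least 2 and a p of at most 0.05 for these cells. By the thresholds of the methods 0 of the 10 members were called in edgeR, beside 1.79% of all tested genes. Traf1 was the only member with a fold change above 2, and its difference of means was 3.21 TPM. That difference is the same whichever test is used. The count of 0 with an unadjusted p under 0.05 and with DESeq2 or limma was therefore fixed by it and is no further check. Without the cut-off on the difference 1 member was called, Traf1, beside 5.92% of all tested genes, and it was again the 1 member called with the difference taken in CPM, beside 2.14% of all tested genes. With the difference in RPKM the count was 0, beside 0.902%.

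The opposite moves of Zc3h12a and Tnfaip3 can be put into a ratio, which was chosen after the values were seen and is given without a test. In Ctrl samples the TPM of Zc3h12a was 4.68, 4.44 and 5.15 times that of Tnfaip3. In Nfkbiz KO samples it was 2.71, 2.43 and 2.44 times. The groups do not overlap in this ratio, which follows from pairing a gene that fell with a gene that rose. The TPM of Tnip1 was 3.76 ± 0.45 times that of Tnfaip3 in Ctrl and 3.23 ± 0.14 times in Nfkbiz KO (SD, n = 3), a much smaller difference.

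Members belong to small families, whose other genes need not follow them. In the ABIN family, Tnip3 (ABIN3) fell from 3.85, 4.27 and 4.06 TPM to 1.49, 1.56 and 1.49 TPM. Its log2 fold change was -1.53 (SE 0.09, adjusted p = 8.65e-08, edgeR), against 0.23 for Tnip1. As a share of the summed TPM of the 3 genes, Tnip1 went from 80.1% ± 0.52 to 86.8% ± 1.05, Tnip2 from 14.2% ± 0.38 to 11.3% ± 1.01 and Tnip3 from 5.75% ± 0.27 to 1.84% ± 0.06 (SD, n = 3). The most abundant and the least abundant ABIN gene thus passed the test in opposite directions.

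In the Regnase family Zc3h12a was by far the main transcript, with 87.8% ± 1.60 of the family's TPM in Ctrl samples and 80.1% ± 1.17 in Nfkbiz KO. Zc3h12c made up 10.5% ± 1.39 and 16.6% ± 1.10. Zc3h12b, encoding Regnase-2, was low at 1.53, 1.35 and 1.08 TPM in Ctrl samples and rose to 2.30, 2.20 and 2.35 TPM (log2 fold change 0.48, SE 0.12, adjusted p = 0.0070, edgeR). Zc3h12d, with 1 to 8 reads per sample, was not tested. The summed level of the family was 81.8 TPM ± 5.47 in the Ctrl samples and 69.8 TPM ± 1.94 in Nfkbiz KO, with no overlap of the samples.

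Tristetraprolin is the scarce member of its family here. Zfp36 held 5.20% ± 0.35 of the summed TPM of Zfp36, Zfp36l1 and Zfp36l2 in Ctrl and 6.58% ± 0.41 in Nfkbiz KO, while Zfp36l2 alone held 71.1% ± 2.57 and 70.3% ± 1.43. The relatives did not pass the test, with log2 fold changes of 0.022 for Zfp36l1 (adjusted p = 0.80) and 0.052 for Zfp36l2 (adjusted p = 0.64, edgeR). Rc3h2, encoding Roquin-2, had a log2 fold change of 0.16 (SE 0.06, adjusted p = 0.058, edgeR), close to the 0.20 of Rc3h1, and the share of Rc3h1 in the pair was 65.2% ± 0.57 and 65.8% ± 0.31.

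Otulinl, a relative of Otulin without known deubiquitinase activity, fell from 22, 35 and 27 reads to 7, 13 and 8 reads (log2 fold change -1.60, SE 0.37, adjusted p = 0.0052, edgeR). At these levels it made up only 1.33% of the pair's TPM in Ctrl. Among the TRAF genes, Traf1 went from 1.75% ± 0.23 to 5.00% ± 0.20 of the summed TPM of Traf1, Traf2, Traf3, Traf5 and Traf6. Traf2, with which TRAF1 forms mixed trimers, did not pass (log2 fold change -0.12, adjusted p = 0.12, edgeR), and the TPM ratio of Traf1 to Traf2 was 0.056, 0.049 and 0.057 in Ctrl and 0.199, 0.199 and 0.182 in Nfkbiz KO.

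**Figure D4:**
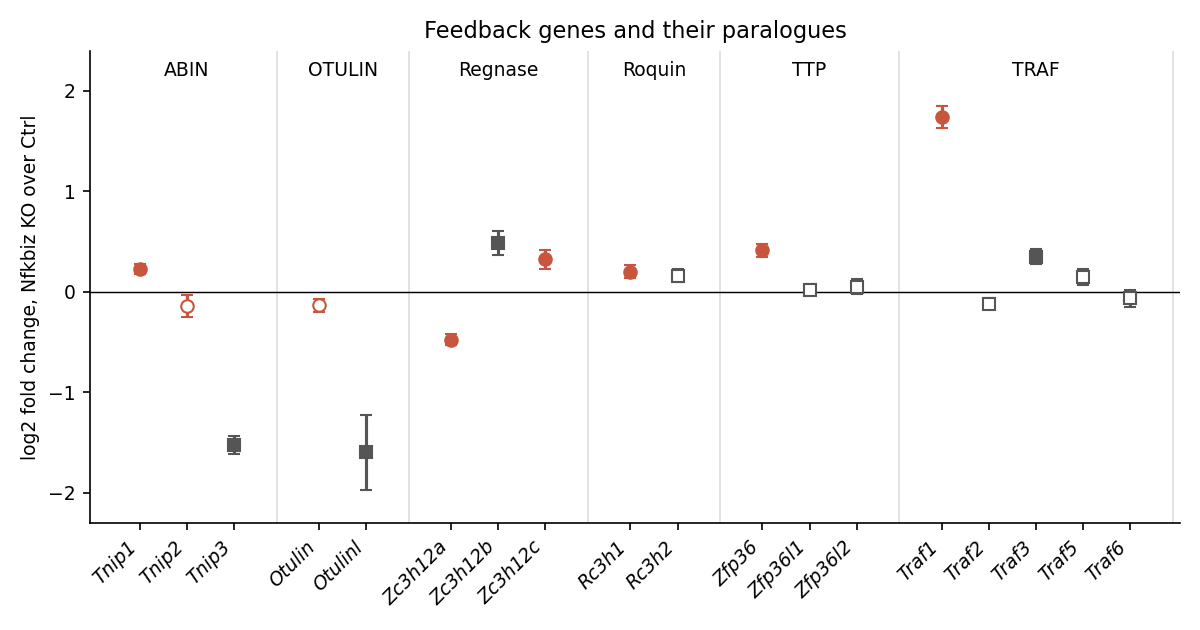
Log2 fold change in Nfkbiz KO over Ctrl with its standard error for the feedback genes (red circles) and their paralogues (grey squares), grouped by family and filled where the adjusted p is 0.05 or less. Tnip3 at -1.53 and Otulinl at -1.60 lie far below their relatives, and Zc3h12a lies below Zc3h12b and Zc3h12c.

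Around the members, 5 lists of related genes were counted in the same fit. Each count below stands beside shares of 18.2% called higher and 18.4% called lower over all tested genes. No list was tested as a set. Of 11 A20 partners and other deubiquitinases, 1 rose, 4 fell and 6 did not pass, with a median log2 fold change of -0.14. The riser was Tax1bp1, the ubiquitin-binding adaptor of the A20 complex, from 40.5, 44.7 and 41.1 TPM to 55.7, 51.8 and 53.8 TPM (log2 fold change 0.25, adjusted p = 0.0029, edgeR). The largest falls were those of Otulinl and Tnip3, described above.

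Of 14 ubiquitin ligases and adaptors, 5 rose, 0 fell and 9 did not pass, with a median of 0.087. The count of falls was also 0 at an unadjusted p under 0.05 in edgeR and with DESeq2 and limma. These fits share the same 6 samples, and limma on TPM called fewer genes lower (1327) than higher (3004), so they add little. Ikbkg encodes NEMO, the ubiquitin-binding subunit of the IKK complex, and rose from 16.7, 19.7 and 16.5 TPM to 24.9, 25.1 and 24.8 TPM (log2 fold change 0.37, adjusted p = 0.00029, edgeR). Traf3, an inhibitor of the non-canonical pathway, rose from 30.8, 31.7 and 23.7 TPM to 39.5, 40.1 and 38.7 TPM (log2 fold change 0.35, adjusted p = 0.0030, edgeR).

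Of 17 mRNA decay factors and their modifiers, 16 were tested, and 3 rose, 1 fell and 12 did not pass, with a median of 0.028. Besides Zc3h12b, the leading riser was N4bp1, an endoribonuclease related to the Regnases, at 32.5, 31.8 and 26.7 TPM in Ctrl samples and 40.6, 40.4 and 39.1 TPM in Nfkbiz KO (log2 fold change 0.30, adjusted p = 0.0023, edgeR). The CCR4-NOT deadenylase subunit Cnot8 fell by 0.16 on the log2 scale (adjusted p = 0.046, edgeR), and this call held under only 3 of 14 alternatives. Leaving out any sample other than control replicate 1 ended it, with adjusted p-values of 0.054 to 0.18, and over all alternatives the adjusted p reached 0.51.

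The mRNAs known as targets of the decay factors formed a list of 18, of which 12 were tested. Of these, 2 rose, 6 fell and 4 did not pass, with a median log2 fold change of -0.54, the lowest of the 5 lists. The list includes Nfkbiz itself and genes known to depend on IκBζ, so its direction is not independent of the knockout. Lcn2, encoding the iron-binding protein lipocalin-2, went from 197, 237 and 238 TPM to 15.7, 14.6 and 15.9 TPM (log2 fold change -3.96, adjusted p = 3.61e-11, edgeR). Csf2, the gene of the cytokine GM-CSF, went from 47.0, 55.8 and 61.2 TPM to 15.6, 17.5 and 14.9 TPM (log2 fold change -1.90, adjusted p = 3.34e-07, edgeR).

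The risers of that list were Rel and Tfrc. Rel, encoding the NF-κB subunit c-Rel, rose by 0.31 on the log2 scale (adjusted p = 0.027, edgeR), a call that was lost without control replicate 3 (log2 fold change 0.21, adjusted p = 0.068), knockout replicate 1 (0.10) or knockout replicate 2 (0.081) among alternatives that ran from 0.0060 to 0.10. It was also lost with limma on TPM, at an adjusted p of 0.076 with a pseudocount of 1 and of 0.087 with 0.1. Tfrc, the transferrin receptor gene, rose by 0.22 (adjusted p = 0.0077, edgeR) and missed the threshold only without knockout replicate 3 (adjusted p = 0.060). Il12b, Il2, Il1b, Il10, Il23a and Tnf were too low to be tested, with at most 7 reads in any sample. The classical Regnase-1, Roquin and tristetraprolin targets Il12b, Il1b and Tnf were thus at or near 0 in these melanoma cells. Other targets of the list were well expressed, with Ctrl means of 22.6 TPM for Il6, 182 TPM for Cxcl1, 365 TPM for Ptgs2 and 626 TPM for Ier3. Il6 (log2 fold change -1.28), Cxcl1 (-0.67) and Ier3 (-0.72) are among those counted as lower, and Ptgs2 (-0.055) did not pass.

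Of 9 other feedback inhibitors of inflammatory signalling, 8 were tested, and 3 rose, 1 fell and 4 did not pass, with a median of 0.063. Sigirr, a receptor that dampens signalling of the interleukin-1 family, rose from 27, 28 and 25 reads to 56, 65 and 78 reads (log2 fold change 1.27, adjusted p = 0.0011, edgeR). Nfkbie, encoding the inhibitor IκBε, rose by 0.41 (adjusted p = 0.00052, edgeR). Socs3, the inhibitor of STAT3 signalling, fell from 130, 127 and 127 TPM to 69.0, 65.9 and 60.5 TPM (log2 fold change -1.07, adjusted p = 8.14e-08, edgeR). Irak3, a pseudokinase that restrains Toll-like receptor signalling, had 1 to 6 reads and was not tested.

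**Figure D5:**
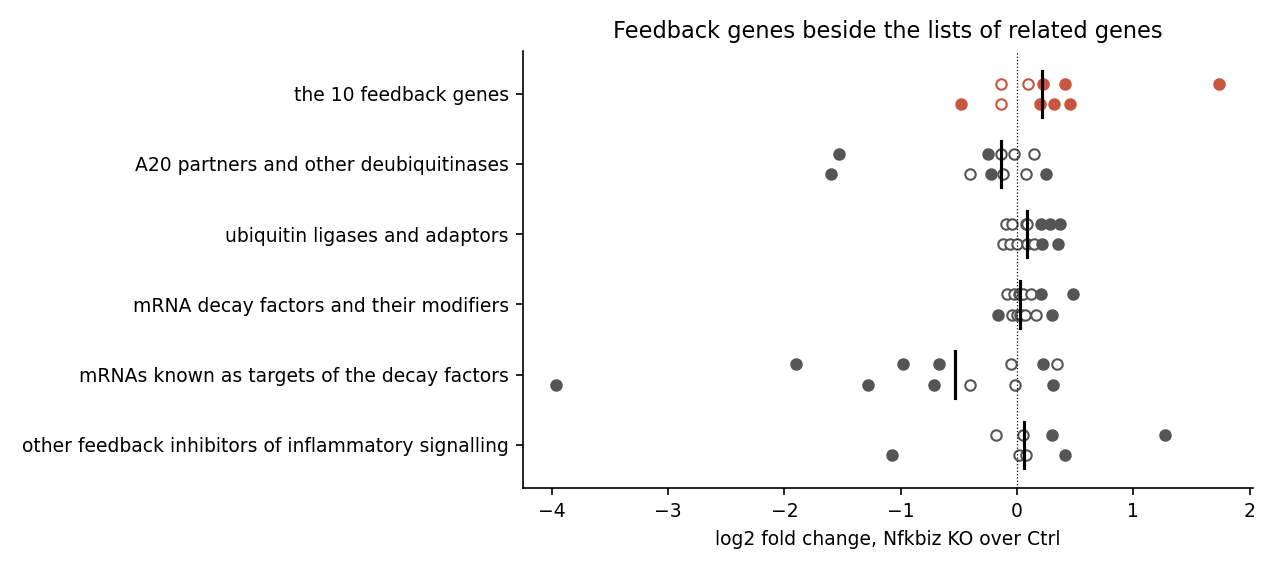
Log2 fold change in Nfkbiz KO over Ctrl of every tested gene of the 10 feedback genes (red) and of the 5 lists of related genes (grey), filled where the adjusted p is 0.05 or less, with a vertical bar at each median. The targets of the decay factors have the lowest median, -0.54, and the feedback genes the highest, 0.21; vertical offsets only separate the points.

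Genes whose pattern over the 6 samples was most like that of Tnfaip3 or Zc3h12a were ranked by Pearson's r of log2 CPM, members left out. The values are a description, since the 6 points fall into the groups and 877 genes exceeded an r of 0.95 with Tnfaip3 and 802 with Zc3h12a. Closest to Tnfaip3 were Rad50 (r = 0.999), Sh3pxd2a (0.998), Zzef1 (0.997), Rev1 (0.996) and Cpeb4 (0.996). Like Tnfaip3 they were lowest in control replicate 3, as in Sh3pxd2a with 58.9, 63.9 and 48.9 TPM in Ctrl samples and 85.2, 88.3 and 85.4 TPM in Nfkbiz KO. Closest to Zc3h12a were Zfp57 (0.999), Acot1 (0.999), Ccn1 (0.999), Fbln2 (0.998) and Gm49083 (0.998). Among these, Ccn1, which encodes a secreted matricellular protein, had 443, 463 and 410 TPM in Ctrl samples and 326, 318 and 294 TPM in Nfkbiz KO.

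Control replicate 3 had the lowest control TPM for Tnfaip3, Tnip1, Cyld, Zc3h12a, Zc3h12c and Rc3h1, and its ratio of summed RPKM to summed TPM was 0.305, against 0.275 to 0.284 in the other 5 samples. Without it Tnfaip3 had a log2 fold change of 0.39 (adjusted p = 0.00012, edgeR). Rc3h1 then had 0.16 (adjusted p = 0.048, edgeR), and both still passed. On the TPM scale the balance of higher and lower calls over all genes also shifted. With limma on log2(TPM + 1), 69.4% of called genes were higher in Nfkbiz KO, against 49.8% in the count fit, and the members then counted 4 higher and 1 lower.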

How the data were processed

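RNA of D4M-3A cells (3 Ctrl, 3 Nfkbiz KO) was sequenced as paired 150-base reads. Mapping was done by the authors in CLC Genomics Workbench. The study's methods name GRCm39 as the genome, the submitters' processing notes GRCm38. The deposited tables give total and uniquely mapped gene reads as raw counts, and TPM and RPKM values normalized by the authors for length and depth. Total gene reads include reads outside exons, since 2105 to 2271 genes per sample had reads but an RPKM of 0. The study's methods set strand use to both strands, so a gene and its antisense partner cannot be told apart.

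Counts were tested with edgeR 4.0.16 (TMM, filterByExpr at its defaults, quasi-likelihood test) over 14419 genes, with Benjamini-Hochberg adjustment. Standard errors are the log2 fold change divided by the square root of F. Alternatives used DESeq2 1.42.0, limma 3.58.1, RLE factors, other filters, unique reads, a replicate block and leaving out each sample. Exact permutation of 3 against 3 samples cannot go below p = 0.1, so single-gene permutation p-values are not given. The procedure was tested on simulated data. The 3′ UTR of 1 member is not reported here.

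The members and all gene lists were chosen with earlier results of these data known. Besides the members and Nfkbiz, the text names from each list the 2 genes with the largest change in each direction among those past an adjusted p of 0.05 and the untested genes, and the 5 genes most like Tnfaip3 and Zc3h12a; paralogues of members and list genes set beside them were named after their values were seen.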

Additional observations from a re-analysis of the deposited data

How the results depend on the processing

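With 3 samples per group and bulk RNA, only changes well above the spread between these samples could be called. Of the 10 feedback genes, Tnfaip3, Tnip1, Zc3h12a, Zfp36 and Traf1 kept their direction and their call under all 14 alternatives, and Tnip2 and Otulin passed under none. No log2 fold change of a member or of Nfkbiz changed sign. The calls of Zc3h12c and Rc3h1 were lost with limma on TPM. Zc3h12c then had log2 fold changes of 0.40 with a pseudocount of 1 and 0.43 with 0.1, and Rc3h1 had 0.28 and 0.30 (the cause was not tested). Leaving out 1 sample gave 0.21 to 0.41 for Zc3h12c, 0.16 to 0.26 for Rc3h1 and 0.055 to 0.16 for Cyld. The number of members past the study's thresholds went from 0 to 1 without the cut-off on the difference and to 1 with the difference in CPM.

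Among the lists of related genes, the partners and deubiquitinases that fell numbered 2 in place of 4 with limma at either pseudocount, and those that rose 1 to 2 when 1 sample was left out. The ligases and adaptors that rose numbered 2 to 5 when 1 sample was left out, and the decay factors that fell 0 to 1. The latter number was 0 with DESeq2, RLE factors, no filter, the replicate block and limma at both pseudocounts. Targets of the decay factors that rose numbered 1 with a pseudocount of 0.1 and 1 to 2 when 1 sample was left out. Other feedback inhibitors that fell numbered 2 without a filter and 2 with unique reads, and 1 to 2 when 1 sample was left out. The cause of these changes was not tested.

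The replicate numbers of the groups did not pair the samples, with correlations of deviations of 0.037, -0.023 and 0.026, and 3 of 6 samples correlated best with their own number. With the number as a block, 6 members rose and 1 fell as before, Nfkbiz had a log2 fold change of -0.98, and 2560 genes were called higher and 2527 lower in place of 2627 and 2647. On the TPM scale with limma, 3004 genes were called higher and 1327 lower.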
